A study of Vitis vinifera and Vitis riparia and Vitis amurensis with 189 samples.

Results

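The 100 genes described here are those whose level changed least as dormant grapevine buds were warmed until budburst. They were chosen by their measured levels alone. The level of a gene was L, the log2 of its CPM (counts scaled to a common total of 1000000 gene counts) plus 1, averaged over the libraries of each genotype and day. Among the 42394 genes counted, 6738 had a mean L of at least 5 over the 56 group means, which corresponds to 31 CPM, and the 100 of these with the smallest standard deviation (SD) of the group means were taken. They make up 1.48% of the genes that reached that level. All libraries except those of V. riparia day 4 entered this choice. The small spread of the members is therefore how they were found and not a result, and what follows describes how they vary within it.

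The study compared dormant buds of 2 wild and 2 cultivated grapevines through the loss of cold hardiness (deacclimation) and the opening of the buds. The wild genotypes were Vitis amurensis PI588635 and Vitis riparia PI588275, each grown as 2 clonal vines in a germplasm repository, and the cultivars of Vitis vinifera were Cabernet Sauvignon and Riesling, from a commercial vineyard. Dormant canes were taken from the vines and cut to pieces with a single node, which stood in water at room temperature. Buds were frozen on day 0 and on the following days until budburst was seen. The 32 libraries of V. amurensis cover day 0 to day 10 except day 6, and the 47 of V. riparia cover day 0 to day 12. The cultivars were followed for longer, with 58 libraries of Cabernet Sauvignon up to day 17 and 52 of Riesling up to day 15. Each group of genotype and day held 2 to 6 libraries. Canes kept in the cold were not analysed here, so warming and time since cutting cannot be told apart, and class (wild or cultivated) cannot be told apart from site or species.

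In winter a grapevine bud holds preformed leaves and often flower clusters in an arrested, cold-hardy state. Warmth after enough chilling lets it lose that hardiness, take up water, resume cell division and growth, and finally break. Such changes alter a large part of the transcripts of a tissue, and genes with steady levels across them are sought as references against which other genes are measured, for example in quantitative PCR. Steady genes are often those of basic cell maintenance. Whether the members belong to that class could not be looked up, because none of the gene identifiers matched the gene table used here (assembly ASM3070453v1). The identifiers stand alone, without names, roles or sequences, and for the same reason no marker gene could be used to check the labelled tissue.

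A library held between 168521 and 21262793 gene counts (median 5021123), and 14 libraries had fewer than 1000000. The no-feature share, the percentage of records that fell in no annotated gene, had a median of 14.5% and was above 25% in 37 libraries. V. riparia day 4 replicates 1 and 4 stood apart from the others, with no-feature shares of 69.0% and 68.4%, and neither was used to choose the members. Among 235 pairs of libraries of one genotype and day, 12 pairs were far more alike than the rest, with a coefficient of variation between them of 0.0416 to 0.0814 against at least 0.11 in every other pair. Each such pair was counted as 1 sample in a mean ± SD. Genes found in one cultivar and nearly absent in the other on days 0, 1 and the last gave a check of the cultivar labels. On days 5, 8 and 11, in 20 of the 21 libraries that carry a cultivar's name, under 10% of the marker counts were those of the labelled cultivar. In 68 of the 71 other libraries checked, at least 90% were. The labels were kept, and the results were also obtained without those days.

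The 100 members were detected in every library, which their minimum level and small spread make likely. The share of the 6738 genes detected in every library was not counted. None of the 18900 values of a member in a library was 0, the lowest was 1 count, and the median was 324 counts. Their SD over the 56 group means ran from 0.139 to 0.227 with a median of 0.209, on the log2 scale, and the 6738 genes of the same minimum level had a median SD of 0.512 and a highest SD of 4.14. As a fold change, the highest and the lowest group mean of a member differed by 1.45 to 2.68 times, with a median of 1.96, against a median of 4.78 times over the 6738 genes. In 56 members no pair of groups was 2-fold apart, and over the 6738 genes this held for 1.22%. The threshold of the choice fell in an unbroken run of values. Vitvi12g00157 and Vitvi18g00410, the last genes inside it, had an SD of 0.227, and Vitvi06g00535 and Vitvi01g00085, the first outside it, had an SD of 0.228. The members' mean levels ran from 32.1 to 473 CPM. Counts were not divided by gene length, so a higher CPM of one gene than of another does not show more transcripts of it.

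**Figure D1:**
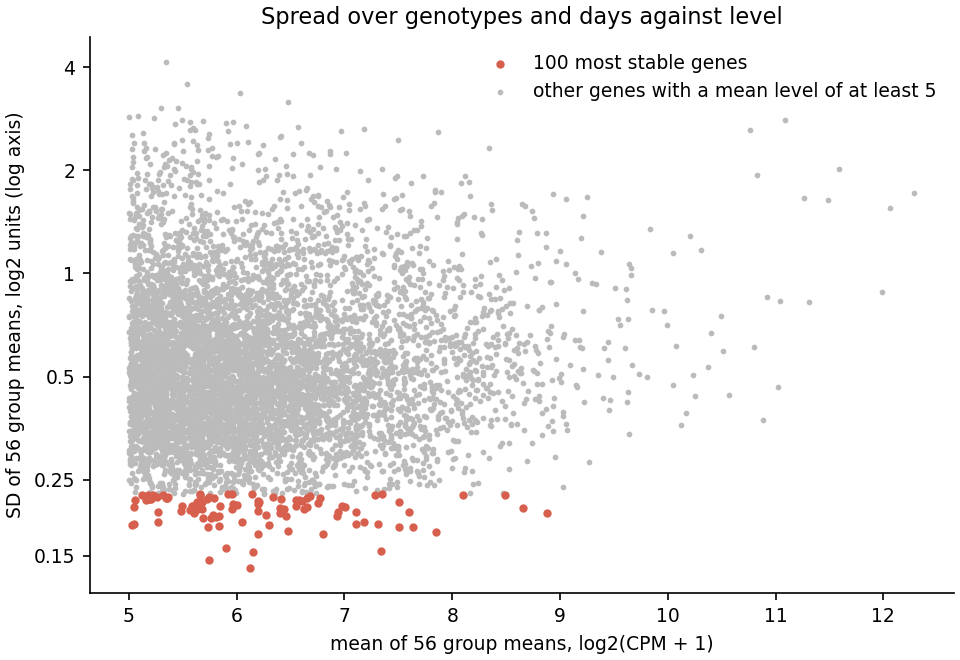
SD of the 56 group means (y axis, log2 units, log axis) against their mean level (x axis, log2 of CPM + 1) for the 100 most stable genes (red) and the other genes with a mean level of at least 5 (grey). The members form the lower edge of the cloud, between SDs of 0.139 and 0.227. Their mean level has a median of 5.99, against 6.0 over all genes with a mean level of at least 5.

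Vitvi13g00003 had the smallest SD of all, 0.139. In V. amurensis it was at 47.2, 68.7 and 105 CPM on day 10, against 92.1, 76.3, 59.0, 91.3 and 82.9 CPM on day 0. In V. riparia it was at 77.7, 86.7 and 67.1 CPM on day 12, against a lowest value of 53.5, a median of 66.2 and a highest of 86.7 CPM over the 6 libraries of day 0. The groups overlapped in both wild genotypes, and the 3 V. amurensis libraries of day 10 lay farther apart from each other than the means of the days did.

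In Cabernet Sauvignon, Vitvi13g00003 was at 88.3, 85.9 and 68.6 CPM on day 17 and at 97.4, 69.1 and 68.5 CPM on day 0. In Riesling it was at 71.6, 85.9 and 66.9 CPM on day 15 and at 92.9, 67.3 and 72.5 CPM on day 0. The last day and day 0 overlapped in these 2 cultivars too. Its lowest group mean, an L of 5.83 in Cabernet Sauvignon on day 5, and its highest, an L of 6.37 in Cabernet Sauvignon on day 10, came from the same genotype. Day 5 is one of the days on which the marker genes went against the cultivar label. Over single libraries it ranged from 37.0 to 105 CPM. With TMM scaling its log2 fold change at the last day was -0.23 (V. amurensis), -0.30 (V. riparia), -0.24 (Cabernet Sauvignon) and -0.38 (Riesling). The adjusted p in edgeR's quasi-likelihood test was 0.319, 0.198, 0.255 and 0.0409 in this order. It was 0.212, 0.212, 0.0694 and 0.00888 for day 1 and 0.0644, 0.549, 0.00936 and 0.00677 for any difference among days. Vitvi13g00003 was chosen from these libraries, so these values are a description.

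The next 3 members by SD were close to it. Vitvi06g00732 (SD 0.146) had a median of 49.0 (V. amurensis), 58.9 (V. riparia), 51.8 (Cabernet Sauvignon) and 51.7 CPM (Riesling) over a genotype's libraries, and ranged from 30.8 to 88.3 CPM over all libraries used. Vitvi09g00208 (SD 0.154) had medians of 63.9, 75.2, 69.2 and 69.0 CPM in the same order and ranged from 44.9 to 107 CPM. Vitvi08g02140 (SD 0.155) had medians of 175, 171, 156 and 156 CPM and ranged from 80.4 to 238 CPM. In each of these genes the genotypes' ranges over libraries overlapped widely.

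In CPM, the libraries of day 0 and of the last day lay apart for Vitvi08g02140 within 2 genotypes. In V. amurensis it was at 129, 136 and 167 CPM on day 10, against 214, 218, 206, 176 and 177 CPM on day 0. In Cabernet Sauvignon it was at 176, 180 and 156 CPM on day 17, against 144, 131 and 116 CPM on day 0. The libraries of the last day lay all below those of day 0 in the wild genotype and all above them in the cultivar. The mean L of the last day minus that of day 0 was -0.46 (V. amurensis), 0.10 (V. riparia), 0.39 (Cabernet Sauvignon) and 0.255 (Riesling). With TMM scaling the log2 fold change was -0.53 ± 0.19, -0.41 ± 0.185, 0.10 ± 0.16 and -0.08 ± 0.17 in the same order (± SE, derived from edgeR's F statistic). The sign in V. riparia and Riesling was thus opposite to that in CPM, and the change in Cabernet Sauvignon was smaller than its error. The difference between the genotypes in this change was not tested.

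**Figure D2:**
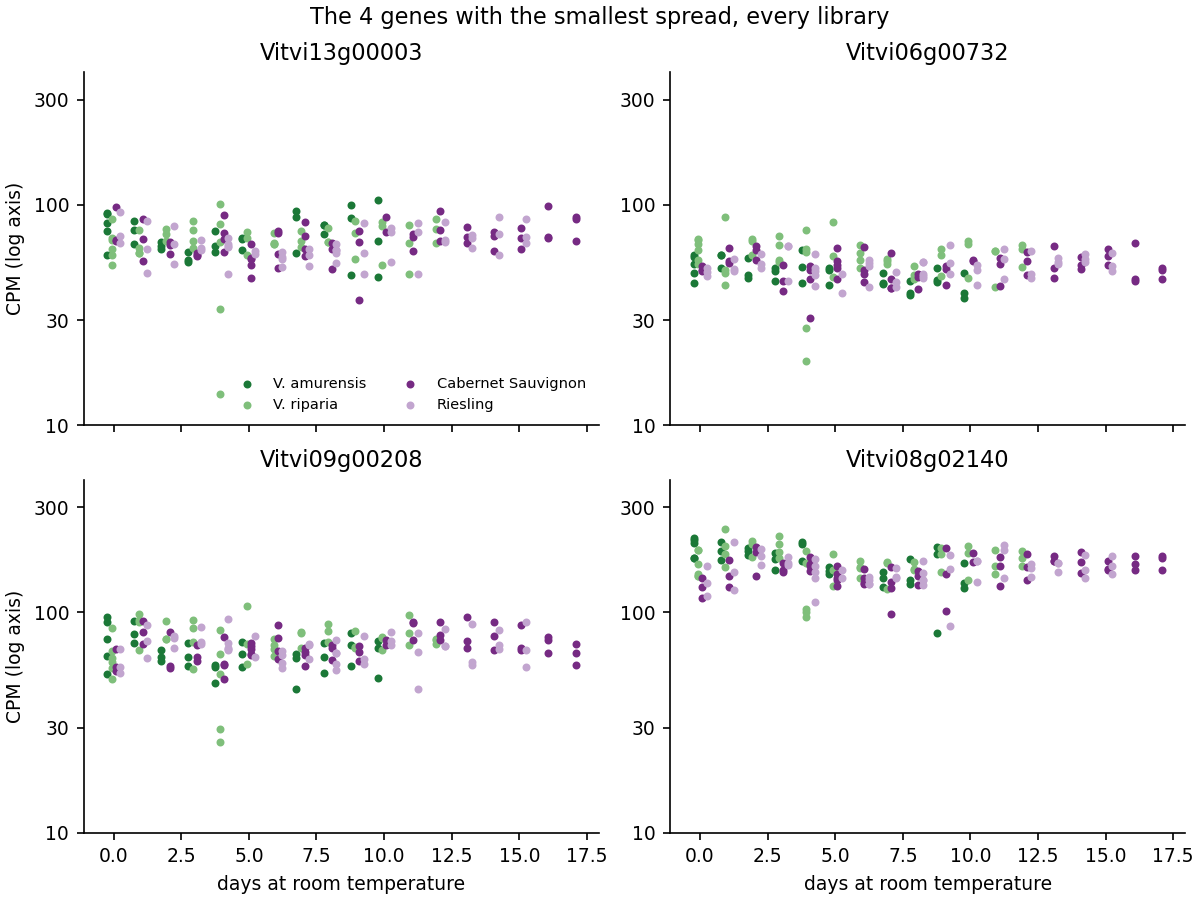
CPM (y axis, log axis) by day at room temperature (x axis) of the 4 genes with the smallest SD, 1 point per library, with points of a genotype set slightly apart. On nearly every day sampled in more than 1 genotype, the points of those genotypes lie over each other. The low points on day 4 are libraries of V. riparia that the choice of genes did not use.

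The members with the highest CPM, a level not corrected for gene length, were Vitvi01g01800 and Vitvi13g01291. Vitvi01g01800 averaged 407 ± 61.1 CPM in V. amurensis on day 10 (SD, n = 3), against 528 ± 29.6 CPM on day 0 (SD, n = 4). It averaged 470 ± 41.0 CPM in V. riparia on day 12 (SD, n = 3), against 423 ± 43.9 CPM on day 0 (SD, n = 4). In Cabernet Sauvignon it averaged 601 ± 93.3 CPM on day 17, against 427 ± 9.70 CPM on day 0, and in Riesling 557 ± 25.3 CPM on day 15, against 456 ± 21.7 CPM on day 0 (SD, n = 3 each). The lowest library of the last day, at 497 CPM in Cabernet Sauvignon and 528 CPM in Riesling, lay above the highest of day 0, at 434 and 481 CPM in the same order. In V. amurensis the highest library of day 10, at 474 CPM, lay below the lowest of day 0, at 484 CPM, and in V. riparia the days overlapped. With TMM scaling the log2 fold change was -0.45 ± 0.185 (V. amurensis), -0.31 ± 0.19 (V. riparia), 0.20 ± 0.17 (Cabernet Sauvignon) and -0.04 ± 0.17 (Riesling), each ± SE, so the sign in V. riparia and Riesling was opposite to that in CPM.

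Deviations of the members from their own means were largest on day 0 of V. riparia, V. amurensis and Cabernet Sauvignon. A member's deviation is its group mean minus its own mean over all groups, in L, and the median of its absolute value over the 100 members was 0.27 in V. riparia on day 0, 0.24 in V. amurensis on day 0 and 0.23 in Cabernet Sauvignon on day 0. The smallest medians were 0.08 in Cabernet Sauvignon on day 12, 0.09 in Riesling on day 11 and 0.09 in Riesling on day 13. Over the 6738 genes the same measure was 0.74 in V. riparia on day 0 and 0.33 in Cabernet Sauvignon on day 12. On V. riparia day 0, 16 members were more than 0.5 from their own mean, as were 64.7% of the 6738 genes.

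In CPM, the direction of these deviations on day 0 differed between genotypes. On day 0 the median deviation of the members was 0.14 in V. amurensis, where 70 of 100 were above their own mean. On the same day it was -0.14 (V. riparia), -0.14 (Cabernet Sauvignon) and -0.05 (Riesling), and 33, 30 and 43 members in this order were above their own mean. By day 10 of V. amurensis 34 members were above it. With TMM scaling, which sets libraries level by the bulk of their genes, this difference between genotypes was not seen. The median deviation on day 0 was then 0.20 (V. amurensis), 0.23 (V. riparia), 0.23 (Cabernet Sauvignon) and 0.225 (Riesling), with 73, 77, 81 and 79 members above their own mean. With the size factors of DESeq2 it was positive in all 4 genotypes too, between 0.13 and 0.19. The share of the 6738 genes above their own means was not counted. These directions are thus not shown to be particular to the members. The SD of a member over the days of 1 genotype had a median of 0.216 (V. amurensis), 0.187 (V. riparia), 0.183 (Cabernet Sauvignon) and 0.163 (Riesling), against 0.497, 0.472, 0.473 and 0.433 in this order over the 6738 genes. V. amurensis held 17.9% of the groups but the highest group mean of 43 members and the lowest of 23. The same was not counted over the 6738 genes.

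**Figure D3:**
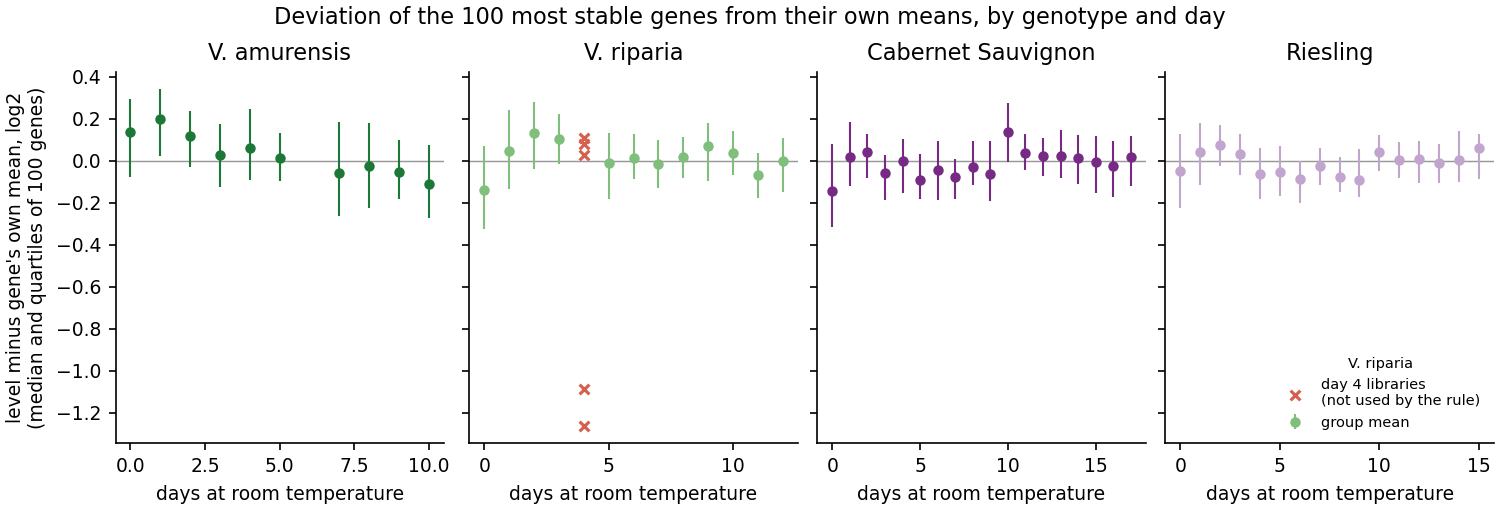
Median over the 100 members (points, with bars for the quartiles) of the group mean minus the gene's own mean, in log2 units of CPM + 1 (y axis), by day at room temperature (x axis) in each genotype, with the 5 single libraries of V. riparia day 4 as crosses. V. amurensis starts at 0.14 and ends at -0.11, V. riparia and Cabernet Sauvignon start at -0.14 (with TMM scaling all 4 genotypes start above 0), and 2 of the 5 crosses lie below -1.

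Between day 0 and the last day, when 47.1% to 49.6% of the 6738 genes were more than 2-fold apart in a given genotype, few members were. The number of members beyond 2-fold was 2 (V. amurensis), 2 (V. riparia), 0 (Cabernet Sauvignon) and 0 (Riesling). The change in L was within 0.25 of 0 for 41, 50, 41 and 55 members in this order, against 14.3%, 14.3%, 13.1% and 15.2% of the 6738 genes. The median change over the members, last day minus day 0, was -0.21 (V. amurensis), 0.105 (V. riparia), 0.155 (Cabernet Sauvignon) and 0.07 (Riesling). Over the 6738 genes it had the same sign in each genotype, at -0.22, 0.31, 0.15 and 0.09 in this order. Members higher on the last day numbered 27, 58, 66 and 60. The sign was positive in all 4 genotypes for 19 members, negative in all 4 for 17 and mixed for 64, whereas 67.6% of the 6738 genes had 1 sign in all 4.

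CPM divides each count by the library's total, so a member can hold its share of the total while the RNA of a bud changes, and the amount of RNA per bud was not measured. In whole buds, fewer cells of a type and less RNA per cell cannot be told apart either. The sign of the members' median change depended on the scaling. With TMM scaling the median change in L was -0.11 (V. amurensis), -0.27 (V. riparia), -0.10 (Cabernet Sauvignon) and -0.12 (Riesling). With the size factors of DESeq2 it was -0.02, -0.225, 0.01 and -0.05 in this order. In the fits with TMM described below, the members' log2 fold changes had medians of -0.30, -0.405, -0.14 and -0.26, and those of the 6738 genes had medians of -0.28, -0.21, -0.14 and -0.24. The median of all genes tested was 0.15, 0.16, 0.34 and 0.15 with TMM and 0.24, 0.66, 0.645 and 0.47 with library totals alone, where the members' medians were -0.235, 0.08, 0.16 and 0.07 and those of the 6738 genes -0.20, 0.29, 0.17 and 0.09. The members' median was thus close to that of the 6738 genes under both scalings except in V. riparia, where it was lower.

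**Figure D4:**
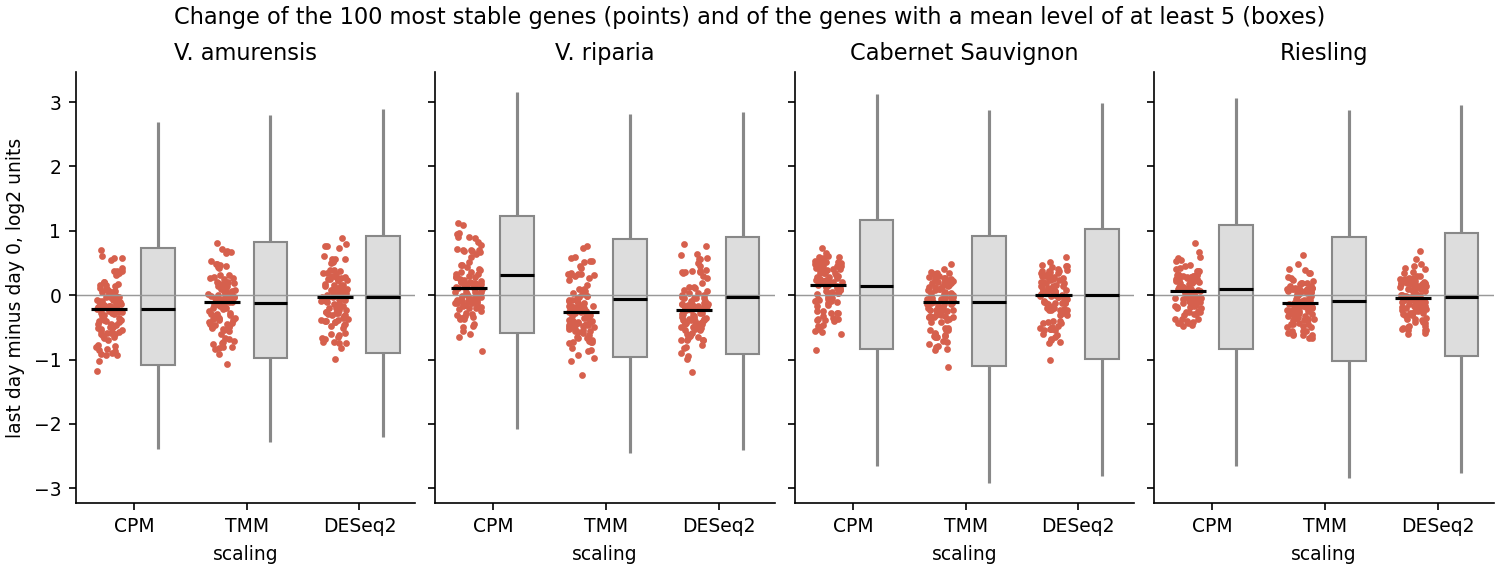
Last day minus day 0 in log2 units (y axis) in each genotype under 3 scalings of the counts (x axis), with a point for each of the 100 members, a box for the quartiles and a line for the 5th to 95th percentiles of the genes with a mean level of at least 5, and a black bar for each median. In V. riparia, Cabernet Sauvignon and Riesling the members' median is above 0 in CPM and below 0 with TMM, and with DESeq2 it lies between -0.225 and 0.01.

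The 2 members that moved up most between day 0 and the last day, by the mean over genotypes, were Vitvi12g00403 and Vitvi11g00935. Vitvi12g00403 was at 38.9, 39.0 and 49.9 CPM in V. amurensis on day 10, against 27.4, 27.2, 33.6, 24.9 and 24.6 CPM on day 0. It was at 51.0, 43.4 and 43.1 CPM in V. riparia on day 12, against a lowest value of 15.4, a median of 20.5 and a highest of 25.7 CPM on day 0. Every library of the last day lay above every library of day 0 in both wild genotypes.

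In the cultivars, Vitvi12g00403 was at 40.9, 43.2 and 43.3 CPM in Cabernet Sauvignon on day 17 and 37.4, 30.3 and 32.1 CPM on day 0. In Riesling it was at 40.7, 43.8 and 41.8 CPM on day 15, against 39.7, 25.9 and 33.2 CPM on day 0. The days did not overlap in the cultivars either. The TMM log2 fold change was 0.56 ± 0.16 (V. amurensis), 0.62 ± 0.18 (V. riparia), 0.05 ± 0.19 (Cabernet Sauvignon) and 0.03 ± 0.22 (Riesling), each ± SE. In the cultivars the change with TMM was thus smaller than its error. Vitvi11g00935 averaged 54.1 ± 8.57 CPM in V. riparia on day 12 (SD, n = 3), against a lowest value of 21.1, a median of 27.5 and a highest of 48.3 CPM over the 6 libraries of day 0. Its mean L of the last day minus that of day 0 was 0.15 (V. amurensis), 0.825 (V. riparia), 0.48 (Cabernet Sauvignon) and 0.67 (Riesling). The TMM log2 fold change was 0.13 ± 0.21, 0.31 ± 0.23, 0.215 ± 0.24 and 0.33 ± 0.24 in the same order (± SE), and no genotype passed an adjusted p of 0.05 in edgeR's quasi-likelihood test (0.24 to 0.588). Without replicate 2 it was -0.12 in Cabernet Sauvignon. Libraries of the last day and of day 0 overlapped in all 4 genotypes.

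The 2 members that moved down most were Vitvi18g01621 and Vitvi18g02767. Vitvi18g01621 was at 64.6, 78.0 and 90.4 CPM in V. amurensis on day 10, against 151, 128, 170, 142 and 151 CPM on day 0. It averaged 84.4 ± 10.3 CPM in V. riparia on day 12 (SD, n = 3), against 113 ± 15.2 CPM on day 0 (SD, n = 4). In V. amurensis the groups lay far apart, and in V. riparia the highest library of day 12, at 96.3 CPM, was above the lowest of day 0. The TMM log2 fold change was -1.01 ± 0.16 (V. amurensis), -0.875 ± 0.185 (V. riparia), -0.57 ± 0.18 (Cabernet Sauvignon) and -0.50 ± 0.20 (Riesling), each ± SE.

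Vitvi18g02767 was at 62.7, 55.8 and 50.9 CPM in V. riparia on day 12, against a lowest value of 82.3, a median of 87.1 and a highest of 103 CPM on day 0. It was at 43.8, 51.2 and 46.7 CPM in Cabernet Sauvignon on day 17, against 67.5, 60.8 and 53.8 CPM on day 0. The days did not overlap in these 2 genotypes, and they did in V. amurensis, where 1 library of day 10 stood at 75.6 CPM and the others at 38.8 and 36.1 CPM. In Riesling the values were 56.8, 66.7 and 57.3 CPM on day 15 and 71.8, 68.1 and 64.6 CPM on day 0. These 4 genes were named for the size of this change. The fold changes, errors and adjusted p-values given for them are therefore a description and support nothing.

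A gene with a small change can still be separated from its replicate spread, and this was counted with edgeR's quasi-likelihood test, fitted across all genes of a genotype with TMM scaling and Benjamini-Hochberg adjustment. Because these libraries chose the members, the counts are a description. At the last day, 41 members passed an adjusted p of 0.05 in V. amurensis against 65.5% of all genes tested, 45 in V. riparia against 62.8%, 23 in Cabernet Sauvignon against 64.5% and 31 in Riesling against 63%. Of these, 37, 41, 23 and 30 members in this order were lower on the last day, against 29.1%, 28.2%, 26.9% and 29.2% of all genes, and 4, 4, 0 and 1 were higher, against 36.5%, 34.5%, 37.6% and 33.7%. Leaving out 1 replicate number gave 20 to 43, 20 to 51, 16 to 25 and 9 to 32 members, lowest without replicate 2 in both wild genotypes, without replicate 1 in Cabernet Sauvignon and without replicate 3 in Riesling. Over all genes, leaving out 1 replicate number called 11968 to 13640, 10233 to 12734, 11938 to 13879 and 10575 to 13282. With every library 13609, 12783, 13862 and 13321 genes were called. Scaled by library totals alone, 33, 18, 24 and 6 members passed, against 65.3%, 62.8%, 64.8% and 62.7% of all genes. Then 5, 16, 18 and 5 members were higher, against 38.3%, 44.4%, 43.3% and 39.6%. Only in V. amurensis did most of the called members have the same direction under both scalings.

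Asked for any difference among its days, the test called 48 members in V. amurensis against 79.4% of all genes tested, 38 in V. riparia against 77.2%, 42 in Cabernet Sauvignon against 87% and 32 in Riesling against 82%. Of these, 8, 6, 3 and 1 had day means at least 2-fold apart within the genotype, against 73.4%, 71.4%, 80.9% and 73% of the 6738 genes. The members called differed between genotypes: 21 were called in none, 35 in 1, 18 in 2, 15 in 3 and 11 in all 4, whereas 65.7% of the 6738 genes were called in all 4. At the last day 40 members were called in at least 2 genotypes, and 1 of these had both directions. Of the 6738 genes, 14.9% were called in 2 genotypes at the last day, 17.6% in 3 and 43% in 4. The directions are those with TMM scaling, under which most called members were lower. When replicate 2 of every day was left out, 12, 16, 16 and 9 members differed among days in the same order of genotypes, from fits with fewer libraries. Over all genes, leaving out 1 replicate number called 13764 to 16490, 12958 to 15488, 16339 to 18578 and 13425 to 17672. With every library 16481, 15707, 18696 and 17341 genes were called.

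On the first warm day fewer members passed the test than on the last. On day 1, 14 members passed in V. amurensis against 29.5% of all genes tested, 14 in V. riparia against 24.2%, 10 in Cabernet Sauvignon against 23.5% and 13 in Riesling against 18.1%. Of these, 0, 5, 1 and 0 were higher than on day 0, against 17.3%, 13.9%, 13.7% and 9.47% of all genes, and 14, 9, 9 and 13 were lower, against 12.2%, 10.3%, 9.82% and 8.61%. By library totals alone 15, 8, 16 and 1 members passed, against 33.8%, 25.2%, 26% and 20.2% of all genes. Then 6, 7, 13 and 1 members were higher, against 26.9%, 20.8%, 21% and 16.6%. No member changed by more than 2-fold in CPM, against 13.8% to 18.4% of the 6738 genes. Without replicate 2, 6, 3, 6 and 0 members passed on day 1. Over all genes, leaving out 1 replicate number called 3747 to 5751, 2395 to 5861, 2645 to 5084 and 1388 to 3762. With every library 6128, 4927, 5049 and 3825 genes were called. The fits take the near-identical libraries as separate samples, and with them summed V. riparia had 7 members on day 1.

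Between wild and cultivated grapevines the members differed little in L averaged over the days, which follows from the choice and is a description. The wild minus cultivated difference ran from -0.25 to 0.315, with a median absolute value of 0.08 against 0.22 over the 6738 genes, and 63 members were higher in the wild genotypes. The share of the 6738 genes higher there was not counted. Vitvi16g01562 and Vitvi13g01291 had the largest differences, 0.315 and 0.27, and were named for them, so their values are a description. Vitvi16g01562 had a median of 149 CPM over the V. amurensis libraries and 137 CPM over those of V. riparia, against 116 CPM in Cabernet Sauvignon and 112 CPM in Riesling. On day 0 it averaged 151 ± 25.9 CPM in V. amurensis (SD, n = 4) and 151 ± 24.1 CPM in V. riparia (SD, n = 4), against 101 ± 9.80 CPM in Cabernet Sauvignon (SD, n = 3) and 93.5 ± 20.7 CPM in Riesling (SD, n = 3). The difference was smaller at the ends of the series, with 139 ± 23.2 CPM in V. amurensis and 134 ± 14.3 CPM in V. riparia, against 138 ± 15.7 CPM in Cabernet Sauvignon and 135 ± 14.2 CPM in Riesling (SD, n = 3 each).

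Vitvi13g01291 had a median of 459 CPM in V. amurensis and 440 CPM in V. riparia, against 393 CPM in Cabernet Sauvignon and 355 CPM in Riesling, and its values over single libraries overlapped in all 4 genotypes. At day 0, in a fit of all 4 genotypes, 16 members passed the test of wild against cultivated, against 31.2% of all genes tested. Of these, 5 were higher in the wild genotypes, against 14.8% of all genes, and 11 were lower, against 16.4%. By library totals alone 14 passed, against 30.9%, and 10 were higher, against 16.8%. The count was 9 with near-identical libraries summed, 27 with DESeq2 and 4 to 17 when 1 replicate number was left out, lowest without replicate 2. Leaving out 1 replicate number called 3827 to 6269 of all genes, against 6302 with every library. The libraries of day 0 took part in the choice, so these counts of members are a description.

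The spread of the members' group means can be set beside the spread between replicates. The SD between replicates of a group had a median of 0.254 over the members, against 0.367 over the 6738 genes. Averaging over the libraries of each group, this spread alone gives group means with an SD of 0.143 (median over members), beside the 0.209 observed. The variance expected from replicates was 50.4% of the observed variance of group means in the median member, with a range of 22.6% to 105%, and 15.5% in the median of the 6738 genes. It was more than 50% in 51 members and in 6.22% of the 6738 genes. The members were chosen for a small SD of group means, the quantity this share is divided by, so a higher share than in the 6738 genes follows from the choice and is only a description. Counting error, the part set by the number of reads, accounted for a median of 17.7% of the members' replicate variance, against 8.99% over the 6738 genes.

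Differences between the means of the genotypes made up a median of 11.4% of the variance of group means in the members and 12.9% in the 6738 genes. They made up more than 50% in 4 members and in 3.84% of the 6738 genes. With each near-identical pair of libraries taken as 1 sample, the replicate part of the median member was 52.0%. For the rest of the variance of group means, the labels give the day within a genotype, and it holds any difference between collections as well.

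V. riparia day 4 was the only group that played no part in the choice, and its 5 libraries differed among themselves. The median difference of the members from their mean L of days 3 and 5 was 0.05, -0.01 and 0.05 in replicates 2, 3 and 5. It was -1.25 and -1.13 in replicates 1 and 4, and 99 of the 100 members were lower in each. The 6738 genes had medians of -1.20 and -1.13 in the same replicates. These are the libraries with no-feature shares of 69.0% and 68.4%, and the 10 genes with most counts took 52.2% and 49.3% of their gene counts, against 4.89% to 11.9% in the other libraries of days 3 to 5. The part of these in the members' lower level was not tested.

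Of the 4 most stable genes, Vitvi13g00003 and Vitvi06g00732 show the same split on day 4. Vitvi13g00003 was at 13.8 and 33.8 CPM in replicates 1 and 4 and at 101, 68.0 and 81.9 CPM in replicates 2, 3 and 5. Vitvi06g00732 was at 27.7 and 19.5 CPM in replicates 1 and 4 and at 77.1, 63.1 and 61.2 CPM in the other 3. In the remaining pair replicate 2 went with replicates 1 and 4. Vitvi09g00208 was at 25.7 and 52.3 CPM in replicates 1 and 4, at 29.7 CPM in replicate 2 and at 65.1 and 83.6 CPM in replicates 3 and 5. Vitvi08g02140 was at 94.9 and 104 CPM in replicates 1 and 4 and at 101, 167 and 190 CPM in replicates 2, 3 and 5. Replicate 2 gave Vitvi13g00003 and Vitvi08g02140 17 counts each, Vitvi06g00732 13 and Vitvi09g00208 5, since that library had 168521 counts in all. In replicates 3 and 5, the 2 deep libraries with 4988893 and 6279595 counts, no member was 2-fold from days 3 and 5, against 0.965% and 2.97% of the 6738 genes.

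The test of day 4 against days 3 and 5, in an edgeR fit of all V. riparia libraries, called 0 of the 100 members and 180 of 20358 genes, or 0.884%, all of them higher on day 4. This number of genes rests on few libraries: it was 50 without day 4 replicate 4, 87 without replicate 1, 387 without replicate 3, and 4 without any library above 25% no-feature share. At an unadjusted p under 0.05 there were 7 members, against 9% of all genes, and the smallest adjusted p of a member was 0.136. DESeq2 called 0 members, and edgeR with RLE size factors called 1. Leaving out day 4 replicate 3 or replicate 5 also gave 1 member. The members' log2 fold changes ran from -0.55 to 0.61 with a median of -0.13, and the 6738 genes had a median of -0.14. The median absolute fold change was 0.19 for the members and 0.21 for the 6738 genes on the log2 scale. Vitvi13g00003 had a log2 fold change of -0.12 (edgeR quasi-likelihood test, adjusted p = 0.975).

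Averaged over all 5 libraries, 34 members had an L on day 4 inside the span of the other 12 days of V. riparia, 65 lay below it and 1 above. The share of the 6738 genes inside the span was 74.3%. With the 2 deepest libraries alone, 87 members and 95% of the 6738 genes were inside. A member's span over the other days is narrow by the choice of the members, so this share is a description.

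The members were chosen for steady levels in these libraries, so a steady summed share follows from the choice and is a description. Summed over the 100 members, the share of a library's gene counts varied little. It ran from 0.757% to 1.06% over the 184 libraries used, with a median of 0.900%. In V. amurensis the share had a median of 0.810% on day 10, against 1.03% on day 0. In Cabernet Sauvignon it was 0.900% on day 17 against 0.813% on day 0, in Riesling 0.905% on day 15 against 0.827% on day 0, and in V. riparia 0.838% on day 12 against 0.843% on day 0. The lowest shares of all were those of V. riparia day 4 replicates 1 and 4, at 0.411% and 0.467%.

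The no-feature share moved with the members' level. In the 23 groups that held libraries on both sides of 25%, the median difference of the members' L, libraries above 25% minus the others, was -0.11, and 19 of 100 members were higher there. The share of the 6738 genes higher there was not counted, so this direction is not shown to be particular to the members. The median absolute difference was 0.13 over the members and 0.14 over the 6738 genes. The members took a median of 0.873% of the counts in libraries above 25% and 0.937% in the other libraries of the same groups. When libraries above 25% were left out, 67 of the 100 members stayed among the 100 lowest SDs. The no-feature share also differed between the ends of the series. None of the 17 libraries of day 0 was above 25%, while on the last day 1 of the 3 libraries of V. amurensis was, and 2 of 3 were in each other genotype. In these other 3 genotypes the members' share was lower in both of them than in the third library, with 0.834% and 0.838% against 0.942% in V. riparia, 0.900% and 0.852% against 1.01% in Cabernet Sauvignon, and 0.905% and 0.872% against 1.0% in Riesling. The part of this in the changes over days was not tested.

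**Figure D5:**
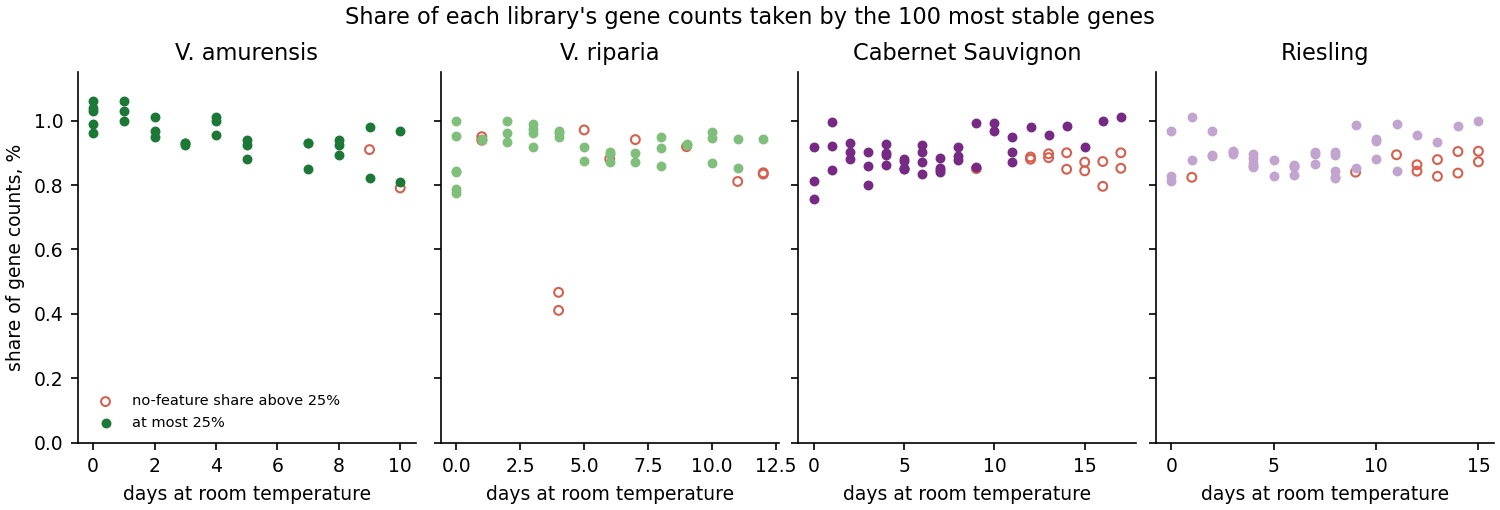
Share of a library's gene counts taken by the 100 members (y axis, percent) by day at room temperature (x axis), 1 point per library, with open red circles for libraries whose no-feature share is above 25%. The libraries used to choose the members lie between 0.757% and 1.06%, and the 2 lowest circles are V. riparia day 4 replicates 1 and 4, at 0.411% and 0.467%.

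Membership of the 100 depended on how libraries were made comparable. With TMM scaling 55 of the 100 were again among the 100 lowest SDs, with the size factors of DESeq2 53, and 52 were so under both. The 4 genes with the smallest SD were among these 52. Nearly all members stayed close to the threshold: 98 were within the 500 lowest SDs under each scaling. Without Cabernet Sauvignon and Riesling days 5, 8 and 11, 90 members remained. Without V. amurensis 59 remained and without V. riparia 62, against 73 without Cabernet Sauvignon and 77 without Riesling. Taking out each genotype's own mean first left 65.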

How the data were processed

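The data are whole-number counts per gene in 189 libraries of grapevine buds, 1 deposited table each, with 42394 genes and 5 bookkeeping rows left out of all totals. Per the submitters' processing notes, cutadapt, STAR, HTSeq and DESeq2 were used; versions, annotation and genome build are not given in the sources used here. RNA was extracted with a Sigma Spectrum plant kit and libraries followed a modified published protocol, per the labels' protocols. Counts without molecular identifiers carry amplification as well as counting error, and the totals given set the precision.

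Genotype, day and replicate number came from the labels. Replicates are buds of few vines, so p-values measure the spread between these libraries. Members were chosen as the report states (Python 3.11.15, NumPy 2.4.6, pandas 2.3.3). The members and lists were chosen with earlier results of these data known. Counts were fitted per genotype with day as a factor (edgeR 4.0.16 in R 4.3.3, TMM, edgeR's expression filter, quasi-likelihood test, Benjamini-Hochberg adjustment over all genes tested), and wild against cultivated with days 0 and 9 of all genotypes. DESeq2 1.42.0, RLE size factors, library totals, no filter, libraries left out and a block of the replicate number were alternatives. The SE of a log2 fold change was its absolute value divided by the square root of the F statistic of edgeR's test. All 100 members passed the filter in every fit. The ranking and the tests were tried on simulated counts. Strand use in counting and reads shared by near-identical genes cannot be seen from the counts.

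Named genes were the 4 smallest SDs, the 2 highest levels, the 2 largest rises and falls by the mean over genotypes of last day minus day 0, the 2 largest wild minus cultivated differences and the 4 genes around the threshold. Replicate numbers recur on every day. Correlations of deviations from group means between same-numbered libraries of day 0 and the last day were all above 0.1 only in Cabernet Sauvignon (0.12 to 0.177) and of day 0 and day 1 in V. amurensis (0.129 to 0.379), Cabernet Sauvignon (0.191 to 0.5) and Riesling (0.159 to 0.489). Libraries of one group with a coefficient of variation under 0.09 between them, a limit set after seeing the data, were counted as 1 sample in means and SDs.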

Additional observations from a re-analysis of the deposited data

Results flagged for a closer look

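A value far from the others was looked for in 43 groups of 4 to 6 libraries, and chance gives about 1 in 20 groups. The values were CPM of the named genes and those at the threshold of the choice, and the members' summed share of counts. Near-identical libraries were taken as separate values. In V. amurensis on day 0, replicate 3 stood apart for Vitvi11g00935 at 58.4 CPM, Vitvi12g00157 at 74.6 CPM and Vitvi01g00085 at 71.5 CPM. Replicate 5 of the same group stood apart for Vitvi01g01800 at 484 CPM and Vitvi16g01562 at 113 CPM. In V. riparia on day 0, replicate 3 stood apart for Vitvi18g00410 at 68.4 CPM.

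Pairs of genotypes moved in opposite directions between day 0 and the last day in 2 named genes, by CPM in every library, and these differences were not tested. For Vitvi08g02140 every library of the last day lay below every library of day 0 in V. amurensis and above it in Cabernet Sauvignon, with TMM log2 fold changes of -0.533 and 0.100. For Vitvi01g01800 the same held for V. amurensis against Cabernet Sauvignon and against Riesling, with TMM log2 fold changes of -0.454, 0.199 and -0.041. In Riesling the sign with TMM is thus opposite to that in CPM.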

How the results depend on the processing

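Genotypes are given below in the order V. amurensis, V. riparia, Cabernet Sauvignon, Riesling. The choice of members kept 55 of 100 with TMM, 53 with DESeq2 size factors, 50 with a mean level of at least 6, 0 with no minimum (genes at or near 0 then rank lowest), 61 by range, 59 without V. amurensis, 62 without V. riparia, 65 centred within genotype and 64 to 98 without 1 replicate number. The members' median change at the last day was -0.266, -0.103 and -0.120 with TMM in the last 3 genotypes and -0.022, -0.225, 0.008 and -0.047 with DESeq2 size factors in all 4, and the members' median deviation on day 0, added after seeing the data, was 0.228, 0.226 and 0.225 with TMM and 0.187, 0.131 and 0.146 with DESeq2 size factors in the last 3, and the cause was not tested. Members called at the last day numbered 24, 26 and, in Riesling, 11 with no filter on low counts; 21, 6 and 5 in the last 3 genotypes without libraries above 25% no-feature share, where 1 library of the last day is left and is assumed to vary like the other days; 15 with RLE and 20 with DESeq2 in Riesling. Chosen after seeing the data, library totals alone gave 18 in V. riparia and 6 in Riesling. On day 1 they numbered 7, 9 and, in Riesling, 4 with no filter, 26, 26 and 16 with DESeq2 in the first 3 genotypes, and 9 in V. riparia and 3 in Riesling without the high no-feature share. With near copies summed V. riparia had 7 on day 1 (3038 genes in all, and 3077 without the high no-feature share). By totals alone the last 3 genotypes had 8, 16 and 1. For any difference among days, no filter gave 22, 21 and, in Riesling, 8, the lower no-feature share 27 in Cabernet Sauvignon and 13 in Riesling, totals alone 16 in V. riparia and 14 in Riesling, and a 2-fold minimum, also added later, 8, 6, 3 and 1. For V. riparia day 4, RLE gave 1 member, and the genes called were 395 with DESeq2, 4 without the high no-feature share, 13 without libraries under 1000000 counts, 66 by totals alone and 63 with the replicate block. Wild against cultivated gave 8 members with no filter, 27 with DESeq2 and 9 with near copies summed.

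Without 1 replicate number (of every day), members called ranged from 20 to 43, 20 to 51, 16 to 25 and 9 to 32 at the last day, 6 to 15, 3 to 16, 3 to 11 and 0 to 13 on day 1, 12 to 43, 16 to 44, 16 to 39 and 9 to 29 for any day, and 4 to 17 between classes (3827 to 6269 genes). Genes called on day 1 ranged from 3747 to 5751, 2395 to 5861, 2645 to 5084 and 1388 to 3762. Without 1 library of days 3 to 5, V. riparia day 4 had 0 to 1 members and 50 to 387 genes. The TMM fold change of Vitvi12g00403 was -0.024 in Cabernet Sauvignon with no filter and -0.090 without replicate 2, and in Riesling -0.050 and -0.005 without replicates 4 and 5, in ranges of -0.09 to 0.103 and -0.05 to 0.109. That of Vitvi11g00935 in Cabernet Sauvignon was -0.124 without replicate 2 and 0.335 without replicate 3. With the replicate block, 36, 37, 23 and 32 members were called at the last day and 10, 12, 11 and 14 on day 1. The genes called for V. riparia day 4 fell well below the 180 of the fit without the block, as given above. The block moved no other count by over 1.5 times. In V. riparia, and in V. amurensis and Riesling at the last day, the numbers are not shown to pair libraries. Cabernet Sauvignon and Riesling days 5, 8 and 11, left out after seeing the data, changed no count by over 1.5 times. Depth limits V. riparia day 4 and Riesling day 4, each with 3 of 5 libraries under 1000000 counts.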
